A study of Homo sapiens with 2 samples.

Results

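The uptake carriers described here are 56 genes of 7 solute carrier families, out of 56638 genes in the deposited tables. Membership followed the symbol: every numbered gene of the SLC10A, SLC15A, SLC22A, SLC28A, SLC29A and SLC47A families. It also took in every SLCO gene written with a digit, a letter from A to C and a digit. The set itself was chosen with earlier results of these data known. The 57 deposited rows with such a symbol include SLC10A3 in 2 rows with equal values, of which 1 was kept. RNA came from TFK1, an established human cholangiocarcinoma (CCA) cell line derived from the bile duct. The study compared untreated TFK1 cells infected with a lentiviral shRNA against MBD2, a protein that binds methylated CpG dinucleotides (library T-shMBD2, here shMBD2), with TFK1 cells infected with a negative control shRNA (library T-shNC, here shNC), to find genes that depend on MBD2. Both conditions therefore carry an shRNA vector and were drug-selected, and the labels do not say which of the MBD2 shRNAs of the study was sequenced. Each condition has 1 library of 1 cell line, so no difference below has a replicate check, no p-value is given, and the spread between cultures is unknown.

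Members of these families bring drugs, bile acids, nucleosides, peptides and other small solutes across membranes. Those that bring drugs into cells act on the opposite side of the balance from the ABC efflux pumps such as ABCB1. Others export solutes, such as SLC47A1, or are lysosomal, such as SLC15A4 and SLC29A3. In the liver and bile ducts, members of SLC10A and SLCO take up conjugated bile acids, and SLC22A members take up organic cations, organic anions and carnitine. SLC28A and SLC29A carry nucleosides and nucleoside drugs such as gemcitabine, SLC47A exchanges protons for organic cations, and SLC15A carries small peptides.

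The libraries held 14728814 counts in shMBD2 and 14467406 in shNC, and 17545 genes reached 10 counts when both were added. MBD2, the targeted gene, had 365 counts in shMBD2 and 1013 in shNC. Its log2FC (shMBD2 over shNC, from counts scaled with TMM factors after a prior of 0.5 counts) was -1.48, with a 95% interval from -1.66 to -1.31. All intervals are exact Clopper-Pearson intervals of how a gene's reads divide between the libraries, and they cover counting error only. Of 10 cholangiocyte markers all 10 had at least 10 counts, and summed TPM over the list was 1422 in shMBD2 and 1578 in shNC, most of it from the biliary keratin KRT7. Of 10 hepatocyte markers, 3 had at least 10 counts, and their list summed to 3.54 and 1.32 TPM. ALB, the defining hepatocyte gene, had 3 and 0 counts. Of 10 leukocyte markers 3 reached 10 counts, with a summed level of 19.8 and 13.8 TPM, mostly CD14, while the defining gene PTPRC had 0 and 1 counts. Of 7 fibroblast markers 3 did, with 9.11 and 4.29 TPM, mostly COL1A1 (308 and 124 counts), while DCN had 1 and 1. No endothelial marker of 5 did (0.0686 and 0.607 TPM in all), and PECAM1, VWF and KDR had no reads. The leukocyte, fibroblast and hepatocyte sums were thus higher in shMBD2, but not every member was. In the fibroblast list COL1A1 and THY1 (14 and 6 counts) were higher. COL1A2 (0 and 1), COL3A1 (1 and 6) and LUM (5 and 6) were not. SERPINA1, with 39 and 11 counts, led the hepatocyte sum. SLCO2B1, SLCO3A1, SLCO4A1 and SLCO5A1 below were also higher in shMBD2, and the part of these other markers in that result was not tested.

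The carriers as a group had the same total level in both libraries, but its makeup differed. TPM summed over all 56 was 377.4 in shMBD2 and 377.1 in shNC. The summed level of the SLCO family was higher after knockdown, 46.9 TPM against 34.4, and that of the nucleoside family SLC29A was 131 against 116. SLC22A was lower, at 112 TPM against 127, and SLC47A at 27.8 against 34.1. SLC10A had 34.7 and 39.5 TPM and SLC15A 25.2 and 26.1. In a bulk library, fewer cells with a transcript and less of it per cell cannot be told apart.

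**Figure D1:**
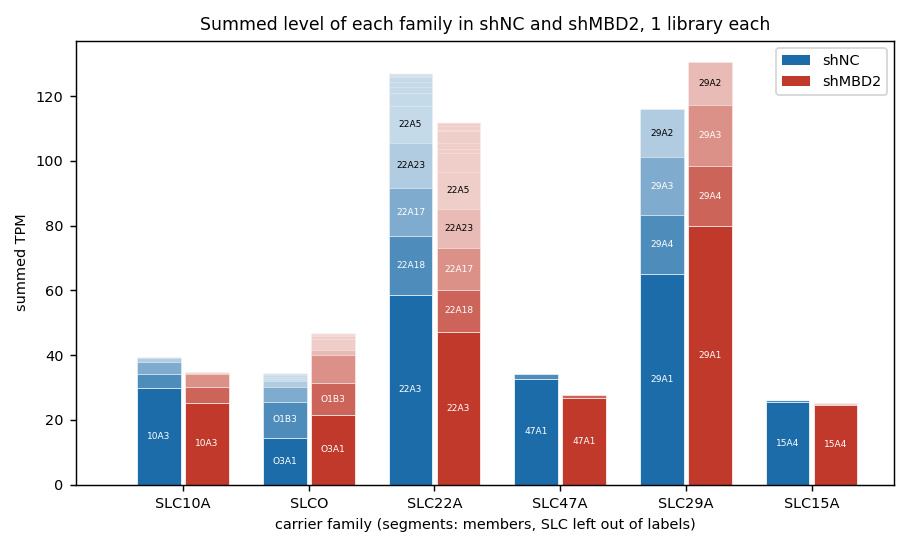
Summed TPM (vertical axis) of 6 carrier families (horizontal axis) in shNC (blue) and shMBD2 (red), 1 library each and no error bars; each segment is a member, and the labels give members above 10 TPM. The SLCO bar is taller in shMBD2 (46.9 against 34.4 TPM) and the SLC22A bar is taller in shNC (127 against 112 TPM); SLC28A, at 0.135 and 0.146 TPM, is left out.

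Counting error alone gave narrow limits to these family differences. The 1140 and 765 counts of the SLCO family gave a log2FC of the sum of 0.57 (interval 0.43 to 0.70). The 2175 and 1909 counts of SLC29A gave 0.18 (interval 0.090 to 0.27). The sums of SLC22A (3260 and 3636 counts) gave -0.17 (interval -0.23 to -0.098). SLC47A was at -0.26 (interval -0.44 to -0.095), while the intervals of SLC10A, at -0.13, and SLC15A, at -0.019, held 0. A sum is weighted to its most abundant member, so the members are given one by one below.

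Of the 56 carriers, 16 had no read in either library, 7 had 1 to 9 counts and 33 had at least 10. A count of 0 allows up to 3 counts, which is 0.205 CPM (counts scaled to a common library size) in shMBD2 and 0.206 in shNC, so low expression of a carrier listed at 0 was not detectable at this depth. Among the 33, 5 had a log2FC above 1 (15.2%), against a background of 5.48% of all genes that passed this filter. None was below -1, against a background of 5.07%. Of the 19 carriers with at least 100 counts, SLCO2B1 alone was above 1 (5.26%) and none was below -1, where the background over all genes with that many counts was 1.78% above and 1.06% below. The other carriers above 1, among them SLCO5A1, SLC22A11 and SLC22A31, had fewer than 100 counts in all. The filter on the sum favors a low gene that is high in 1 library. This holds for SLCO2B1 too, which passed 100 counts through shMBD2 (112 counts, with 26 in shNC). With 1 TPM added to each value in place of the prior, the other 4 carriers above 1 came to between 0.34 and 0.96, and SLCO2B1 to 1.27. The interval lay wholly above 0 for 9 of the 33 (27.3%, background 19.7%) and wholly below 0 for 3 (9.09%, background 18.4%). The median log2FC of the 33 was 0.015, beside -0.0082 over the 17545 genes, with 17 values above 0 and 16 below. With total counts these medians were -0.0021 and -0.024.

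**Figure D2:**
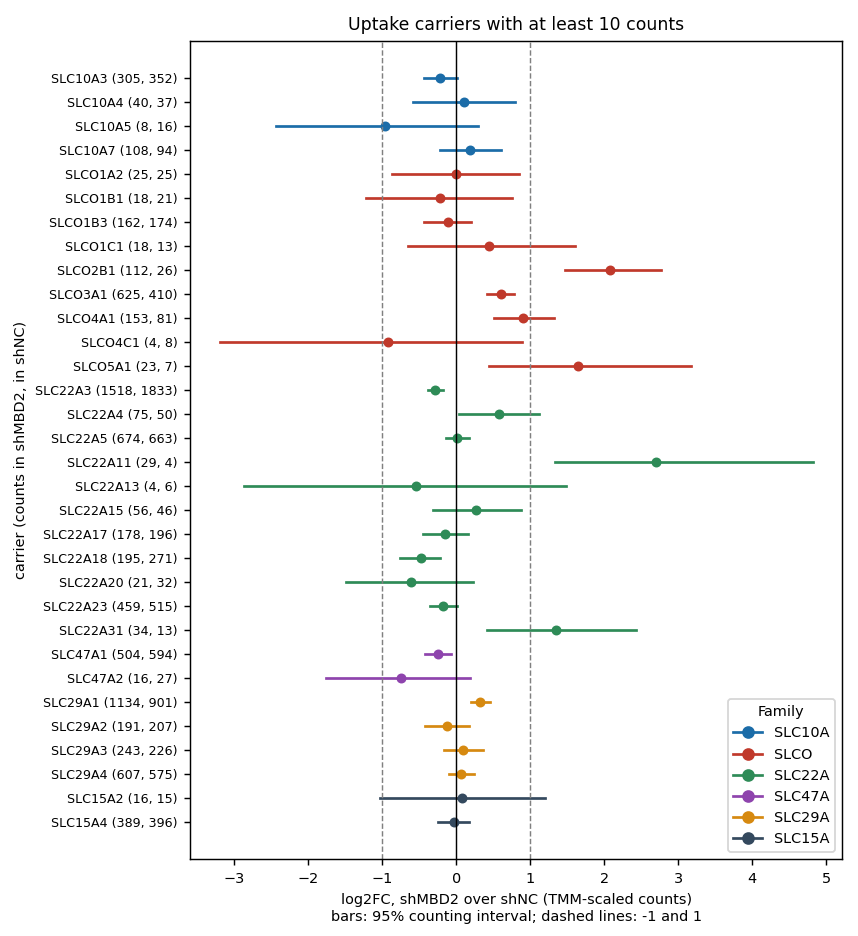
Log2FC of shMBD2 over shNC (horizontal axis; points, with 95% counting intervals as bars) for 32 of the 33 carriers with at least 10 counts, colored by family, with the counts in shMBD2 and shNC beside each name. SLCO2B1 and SLC22A11 are the members whose whole interval lies to the right of 1, and no point lies to the left of -1.

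**Figure D3:**
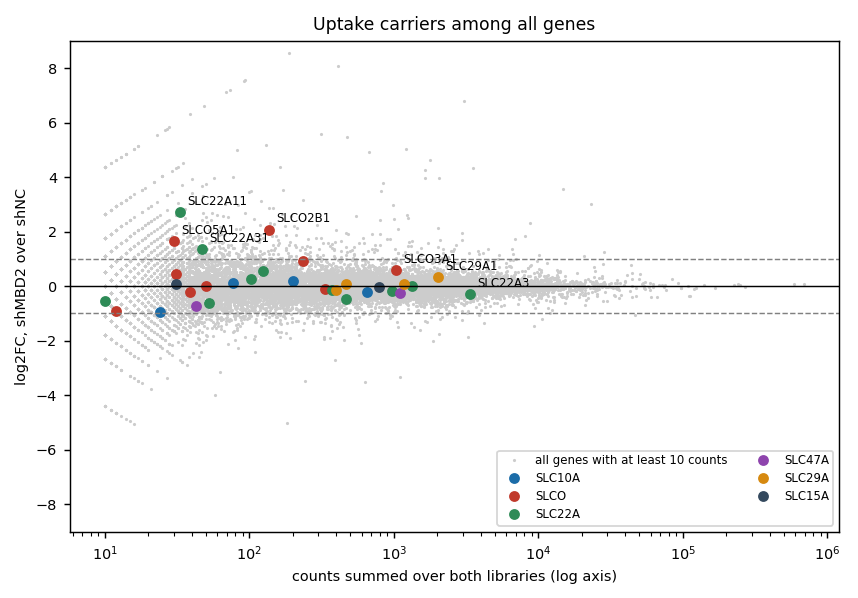
Log2FC (vertical axis) against counts summed over both libraries (horizontal axis, log scale) for the 17545 genes with at least 10 counts (grey) and 32 of the 33 carriers among them (colored by family). SLCO2B1, with 138 counts of which 112 are from shMBD2, stands above most genes of its count, whereas the other carriers above 1 lie where the grey points spread widely.

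The sodium-driven bile acid carriers of the SLC10A family were at or near 0 in both libraries. SLC10A1 (NTCP), which takes conjugated bile acids into hepatocytes with sodium, had 2 counts in shMBD2 and 5 in shNC. SLC10A2 (ASBT), the apical bile acid carrier of ileum and cholangiocytes, had 0 in both, as did SLC10A6, which carries sulfated steroids. The absence of SLC10A2 reads stands beside readable cholangiocyte markers in the same libraries, and CFTR, another apical marker of these cells, had 6 and 11 counts.

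The other SLC10A members are orphan or divergent carriers, and the interval of each of the 4 with at least 10 counts held 0. SLC10A3 was the most abundant, with 305 counts in shMBD2 and 352 in shNC, 25.1 and 29.7 TPM (log2FC -0.22, interval -0.44 to 0.0097). SLC10A7, linked to calcium handling and bone, had 108 and 94 counts, and SLC10A4, found in synaptic vesicles, had 40 and 37. SLC10A5 had 8 and 16 counts, with a log2FC of -0.97 whose interval ran from -2.44 to 0.30. Over these 4 members the median log2FC was -0.057.

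The SLCO family encodes the organic anion transporting polypeptides (OATPs), and it held the widest differences among the better counted carriers. SLCO2B1 (OATP2B1), a carrier of statins, steroid sulfates and thyroid hormone on chromosome 11 from 75100563 to 75206549 (GENCODE 29, GRCh38), had 112 counts in shMBD2 and 26 in shNC. That was 3.33 against 0.794 TPM, a log2FC of 2.08 (interval 1.47 to 2.77). It was in rank 20 in shMBD2 and 25 in shNC among the 56 carriers by TPM, so it was still a low-level gene in shMBD2.

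SLCO3A1 (OATP3A1), a broadly expressed carrier of prostaglandins and thyroxine that has been linked to bile acid efflux in cholestasis, was the most abundant OATP. It had 625 counts in shMBD2 and 410 in shNC, 21.4 and 14.4 TPM, with a log2FC of 0.60 (interval 0.42 to 0.78). By TPM it was in rank 6 of all carriers in shMBD2 and 11 in shNC. SLCO4A1 (OATP4A1), a thyroid hormone carrier, had 153 and 81 counts, 8.65 and 4.70 TPM. Its log2FC was 0.90 (interval 0.51 to 1.32), just under the line of 1. SLCO4A1-AS1, which shares 346 exonic bases with it on the opposite strand, had 0 and 1 counts. SLCO5A1, an orphan member, had 23 and 7 counts, 0.443 and 0.138 TPM (log2FC 1.64, interval 0.44 to 3.17).

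In the SLCO1 cluster the interval of every member with at least 10 counts held 0. SLCO1B3 (OATP1B3), a bile acid and taxane carrier of hepatocytes that many carcinomas also transcribe, had 162 counts in shMBD2 and 174 in shNC, 10.1 and 11.1 TPM (log2FC -0.11, interval -0.43 to 0.21). Its value is uncertain in another way: 67.4% of the 50-base words of its longest transcript also occur in the readthrough gene AC011604.2, which the tables list apart with 2 and 11 counts. SLCO1B1 (OATP1B1), the liver's main statin carrier, had 18 and 21 counts, 1.41 and 1.69 TPM (log2FC -0.23, interval -1.22 to 0.75). SLCO1A2, which carries bile acids in cholangiocytes and at the blood-brain barrier, had 25 and 25. SLCO1C1, a thyroxine carrier of brain vessels, had 18 and 13. SLCO1B7 had no reads, and 84.4% of its words are shared with AC011604.2.

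Of the remaining OATPs, SLCO4C1, a kidney carrier of digoxin, had 4 and 8 counts (log2FC -0.93, interval -3.19 to 0.89). SLCO2A1, the prostaglandin transporter, and SLCO6A1, a testis gene, had none. Over the 9 OATPs with at least 10 counts the median log2FC was 0.45, the highest of the families, with 5 values above 0 and 4 below. This median is the value of SLCO1C1, whose 18 and 13 counts gave an interval from -0.65 to 1.61. The family median was 0.19 with TPM plus 1 and 0.75 over the 4 with at least 100 counts. Of these 9, 4 had an interval above 0 (44.4%, background 19.7%) and 0 an interval below it (background 18.4%).

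Promoter sequences from RefSeq (GRCh38.p14) are shown for 2 carriers, since MBD2 binds methylated CpG: SLCO2B1, the member past a log2FC of 1 with the most counts, and SLC29A1, the most abundant member. Each runs from 250 bases before to 50 bases after the annotated start on the plus strand, and every CG dinucleotide is in capitals. SLCO2B1 is at chr11:75150857-75151156 and SLC29A1 at chr6:44219365-44219664. The first window lies inside the GENCODE 29 gene, so other annotated starts of SLCO2B1 lie outside it.
SLCO2B1: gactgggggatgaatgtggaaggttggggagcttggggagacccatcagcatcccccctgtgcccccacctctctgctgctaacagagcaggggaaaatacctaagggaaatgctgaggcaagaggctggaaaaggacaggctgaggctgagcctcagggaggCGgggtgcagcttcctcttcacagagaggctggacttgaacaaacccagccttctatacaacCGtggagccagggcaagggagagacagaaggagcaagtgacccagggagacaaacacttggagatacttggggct
SLC29A1: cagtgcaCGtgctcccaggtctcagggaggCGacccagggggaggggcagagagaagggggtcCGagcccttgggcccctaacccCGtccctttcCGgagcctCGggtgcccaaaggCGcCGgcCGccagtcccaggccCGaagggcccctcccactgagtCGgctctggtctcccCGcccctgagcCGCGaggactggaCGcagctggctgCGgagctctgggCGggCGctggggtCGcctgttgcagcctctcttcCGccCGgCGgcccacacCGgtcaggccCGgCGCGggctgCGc

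The windows differ in their CG content. SLCO2B1 has 2 CG dinucleotides, a number that 89.0% of all 35114 RefSeq promoter windows reach or exceed, and SLC29A1 has 27, which 28.2% reach or exceed. DNA methylation was not measured here, and the letters say nothing about MBD2 binding. A window was found for 35 of the 56 carriers. The carriers with at least 100 counts had a median of 28 CG dinucleotides (n = 14 windows), those with 0 counts a median of 4 (n = 9), and all windows a median of 14. Exceptions lay on both sides. SLC15A1 has 31 CG dinucleotides and no reads, while SLCO1B3 has 0 and had 162 and 174 counts. SLCO3A1, higher in shMBD2 like SLCO2B1, has 38, so SLCO2B1 and SLCO3A1 did not share a CG content. SLCO4A1 and SLCO5A1 were not matched to a window.

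The SLC22A family comprises the organic cation (OCT), carnitine (OCTN) and organic anion (OAT) transporters. Of its 5 members above 10 TPM in both libraries, SLC22A3 and SLC22A18 were lower in shMBD2 beyond counting error. An interval below 0 was found for 18.4% of all genes with at least 10 counts. SLC22A3 (OCT3), a low-affinity carrier of monoamines, metformin and platinum drugs such as oxaliplatin, had 1518 counts in shMBD2 and 1833 in shNC, the most reads of any carrier. At 47.2 and 58.5 TPM it was in rank 2 in both libraries, and its log2FC was -0.28 (interval -0.38 to -0.18). Its chromosome 6 neighbor SLC22A2 (OCT2), the kidney cisplatin carrier, was close to 0. SLC22A2 had 5 counts in shMBD2 and 0 in shNC, and its counting interval held 0.

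The carnitine carriers SLC22A4 and SLC22A5 lie side by side on chromosome 5. SLC22A5 (OCTN2), the main carnitine importer, had 674 counts in shMBD2 and 663 in shNC, 11.3 and 11.4 TPM (log2FC 0.015, interval -0.14 to 0.17). SLC22A4 (OCTN1), the ergothioneine carrier, had 75 and 50 counts, 5.96 and 4.08 TPM, with a log2FC of 0.57 (interval 0.041 to 1.12). The strand setting of the counting is not given, and 8.74% of the exonic bases of SLC22A4 lie opposite MIR3936HG, which had 59 and 93 counts. The pair thus gave an equal value for SLC22A5 and a higher one for SLC22A4, whose interval starts close to 0.

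The organic anion carriers of kidney and liver were mostly at 0, and SLC22A11 was the exception with a difference. SLC22A6 and SLC22A8 (OAT1 and OAT3), SLC22A7 (OAT2) and SLC22A12 (URAT1, the urate carrier) had 0 counts in both libraries, as did SLC22A9, SLC22A10, SLC22A24 and SLC22A25. SLC22A11 (OAT4), which carries urate and sulfated steroids in kidney and placenta, had 29 counts in shMBD2 and 4 in shNC, 1.31 and 0.186 TPM. Its log2FC was 2.70 (interval 1.34 to 4.82), the highest of the carriers with at least 10 counts, from a level near the floor in shNC. With TPM plus 1 it was 0.96, under the 1.27 of SLCO2B1. SLC22A12, is its neighbor on chromosome 11.

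The remaining SLC22A members are orphans or have unusual substrates. SLC22A18, a candidate tumor suppressor in an imprinted region of chromosome 11, had 195 counts in shMBD2 and 271 in shNC, 12.9 and 18.5 TPM, with a log2FC of -0.48 (interval -0.76 to -0.21). Its antisense partner SLC22A18AS, which shares 227 exonic bases with it, had 10 and 26 counts (log2FC -1.34), so both genes of this locus had lower values, and reads on the shared bases cannot be assigned without a known strand setting. SLC22A31 had 34 and 13 counts, 3.56 and 1.40 TPM (log2FC 1.34, interval 0.42 to 2.42). SLC22A23, with 459 and 515 counts, and SLC22A17, a receptor for lipocalin, with 178 and 196, had intervals that held 0. SLC22A15 had 56 and 46 counts and SLC22A20, a pseudogene in GENCODE 29, had 21 and 32. SLC22A13, with 4 and 6 counts, had a log2FC of -0.54 (interval -2.86 to 1.48). SLC22A14 (2 and 4 counts) and SLC22A16 (0 and 1) were below 10 counts. For the 12 SLC22A members with at least 10 counts the median log2FC was -0.066. Of these 12, 3 were above 1 (25%, background 5.48%) and 0 below -1 (background 5.07%). None of the 7 with at least 100 counts was past either line. The interval lay above 0 for 4 of the 12 (33.3%, background 19.7%) and below 0 for 2 (16.7%, background 18.4%).

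SLC47A1 (MATE1), which moves cations such as metformin and cisplatin out of hepatocytes and kidney cells into bile and urine, was the third carrier by TPM. It had 504 counts in shMBD2 and 594 in shNC, 26.9 and 32.5 TPM, with a log2FC of -0.25 (interval -0.42 to -0.072). Its neighbor SLC47A2 had 16 and 27 counts, 0.899 and 1.56 TPM (log2FC -0.75, interval -1.75 to 0.18). SLC22A3 and SLC47A1, a cation importer and a cation exporter, were therefore both lower by a small amount.

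Among nucleoside carriers, only the equilibrative family SLC29A was readable. SLC29A1 (ENT1), the main route of gemcitabine into cells, had the highest TPM of all carriers, with 1134 counts in shMBD2 and 901 in shNC, 79.8 and 65.1 TPM. Its log2FC was 0.32 (interval 0.20 to 0.45). SLC29A2 (ENT2) had 191 and 207 counts (13.3 and 14.8 TPM), SLC29A3 (ENT3), the lysosomal member, 243 and 226, and SLC29A4, a monoamine carrier also known as PMAT, 607 and 575. The intervals of these 3 held 0, with log2FC from -0.12 to 0.10. The sodium-driven carriers SLC28A1, SLC28A2 and SLC28A3 had 2 counts between them in each library.

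Of the peptide carriers, SLC15A4, a lysosomal histidine and peptide carrier, made up 97.4% of the family's TPM in shMBD2 and 98.0% in shNC. It had 389 and 396 counts, 24.5 and 25.6 TPM (log2FC -0.035, interval -0.24 to 0.17). SLC15A2 (PEPT2) had 16 and 15 counts, SLC15A3 had 4 and 1, and the intestinal carrier SLC15A1 (PEPT1) and SLC15A5 had none. TMEM132A, which shares 76 exonic bases with SLC15A3 on the other strand, had 1770 and 720 counts.

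**Figure D4:**
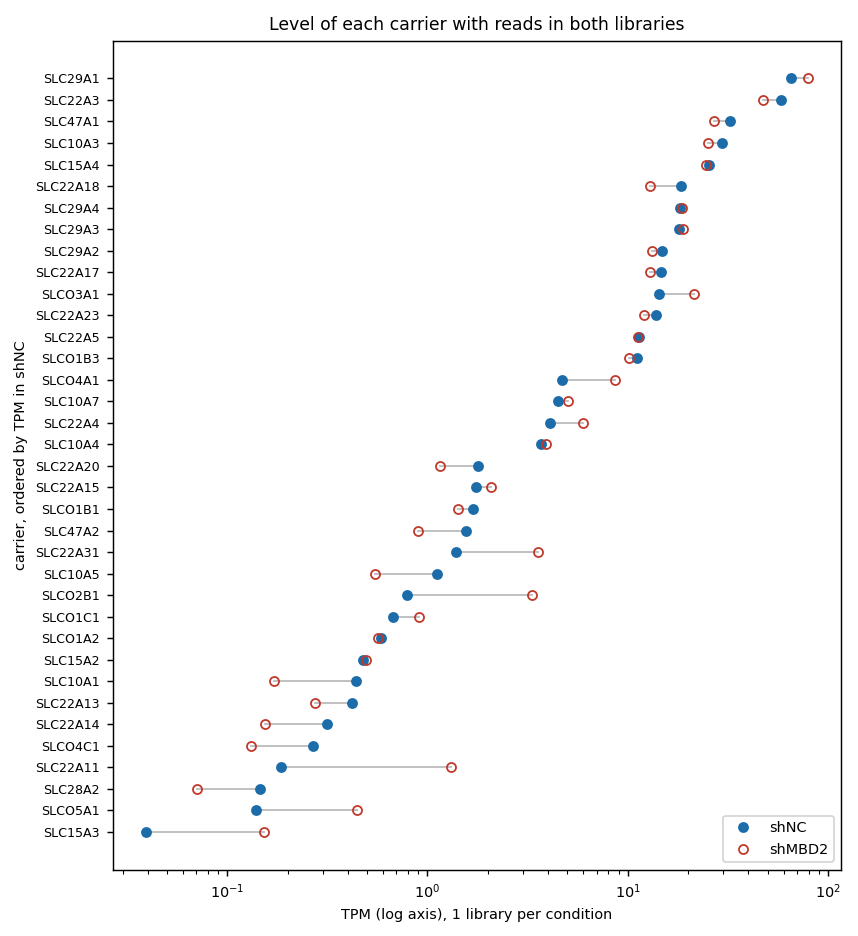
TPM (horizontal axis, log scale) of 36 of the 37 carriers with reads in both libraries, ordered by their level in shNC (blue filled points), with shMBD2 as open red points, 1 library each. The order of the most abundant members is nearly kept, from SLC29A1 at 79.8 and 65.1 TPM downward, and the long connecting lines belong to carriers below 5 TPM.

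By TPM, 24 carriers reached 1 and 14 reached 10 in each library, and the 5 highest took 53.9% of the summed level in shMBD2 and 56.0% in shNC. SLC29A1, SLC22A3, SLC47A1, SLC10A3 and SLC15A4 were the first 5 in that order in both. Of these, SLC29A1 in shMBD2 and SLC22A3 and SLC47A1 in shNC were higher beyond counting error. SLC10A3 and SLC15A4 were not separated by it. Over all genes with at least 10 counts, 19.7% had an interval above 0 and 18.4% an interval below 0. The interval narrows with more reads, so a small difference passes counting error more easily in such abundant genes.

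Many of the carriers lie next to each other in the genome. With gaps of at most 500000 bases, 24 of the 56 fall into 8 runs. All 6 carriers of the run on chromosome 11 from 62936385 to 63410294 (GENCODE 29, GRCh38), from SLC22A6 to SLC22A9, had 0 counts. The 5 genes of the SLCO1 run on chromosome 12, from 20695355 to 21419594, had 223 and 233 counts in all.

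Genes that act with these carriers were described by lists. The lists were chosen with earlier results of these data known. Their shares past 1 or -1 beside the background therefore describe the listed genes and are not a test of the lists. In the list of bile acid efflux and synthesis, 9 of 13 genes had at least 10 counts, with 0 above 1 (background 5.48%), 1 below -1 (background 5.07%) and a median log2FC of -0.26. BAAT, which conjugates bile acids to glycine or taurine, had 57 counts in shMBD2 and 141 in shNC (log2FC -1.31, interval -1.79 to -0.86). The canalicular pump ABCC2 had 9621 and 11480 counts, 317 and 388 TPM, and the basolateral pump ABCC3 had the most counts of the list, 10054 and 11929. Both were above every uptake carrier in TPM, and both had a log2FC of -0.26. The bile salt pump ABCB11 had 2 and 0 counts and CYP7A1, the rate-limiting enzyme of bile acid synthesis, none.

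A list of 16 genes held bile acid sensors and lineage factors of carrier genes, together with FGF19, FGFR4 and KLB. Of these 16, 13 had at least 10 counts, 1 above 1 (7.69%, background 5.48%) and 2 below -1 (15.4%, background 5.07%), with a median log2FC of -0.12. VDR, the vitamin D receptor that also senses lithocholic acid, had 166 counts in shMBD2 and 27 in shNC (log2FC 2.59, interval 2.02 to 3.26). HNF4A, a hepatobiliary lineage factor, had 309 and 631 (log2FC -1.04, interval -1.24 to -0.84), and NR1I3 (CAR) had 3 and 12 (interval -4.47 to -0.12). The bile acid receptor NR1H4 (FXR) had 27 and 17 counts. AHR had the most counts of this list in shNC, 1601, with 1140 in shMBD2, while NR5A2 had the most in shMBD2, 1165 against 909.

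The carrier scaffolds held the widest contrast of all lists. PDZK1, a PDZ protein that tethers OATPs and OCTNs at the apical membrane, had 35 counts in shMBD2 and 127 in shNC, 2.94 and 10.9 TPM (log2FC -1.85, interval -2.45 to -1.32). PDZK1IP1 (MAP17), the small membrane protein that binds it, had 128 and 3 (log2FC 5.19, interval 3.83 to 7.70), or 26.5 and 0.636 TPM. Its shNC value lies at the floor of 3 counts, and against that floor PDZK1IP1 was at least 42.4-fold higher in shMBD2. Of 6 scaffold genes 5 had at least 10 counts, 1 above 1 (background 5.48%) and 1 below -1 (background 5.07%), and SLC9A3R2, with the most counts, had 741 and 1097 (log2FC -0.57). The order of PDZK1 and its partner was thus turned between the libraries.

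**Figure D5:**
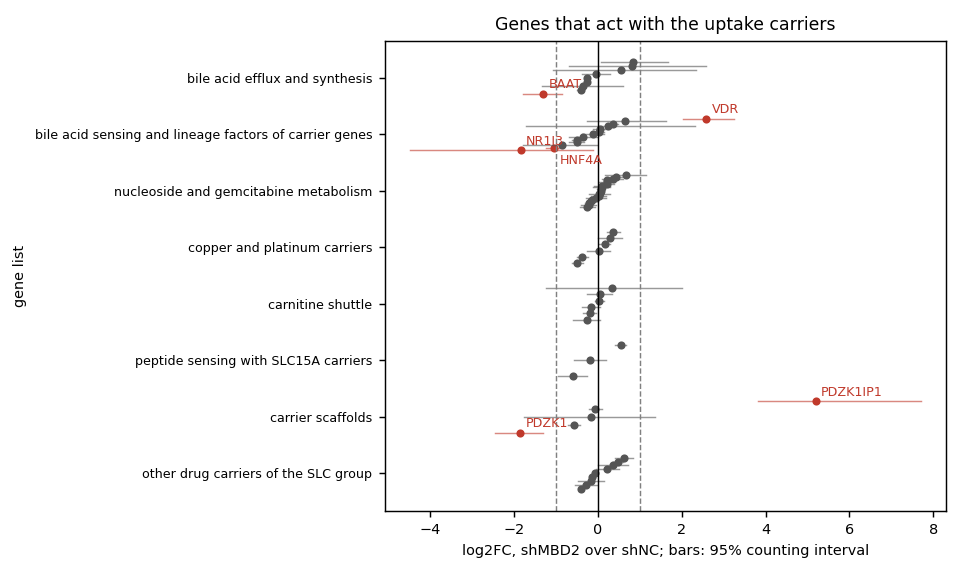
Log2FC of shMBD2 over shNC (horizontal axis; points, with 95% counting intervals as bars) for members of 8 lists of genes that act with the carriers, where both libraries together held at least 10 counts (vertical axis). VDR and PDZK1IP1 lie above 1, and BAAT, HNF4A, NR1I3 and PDZK1 below -1 (red); the genes of the nucleoside list stay within 1 of 0.

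The drug-handling lists around these carriers held no gene past 1 or -1 among those with at least 10 counts, where few genes of any kind are: the background is 5.48% and 5.07%, and 1.78% and 1.06% from 100 counts on. All 19 genes of nucleoside and gemcitabine metabolism had at least 100 counts, with a median log2FC of 0.064 and a range from -0.25 to 0.66. DCK, the kinase that activates gemcitabine after uptake through SLC29A1, had 485 counts in shMBD2 and 575 in shNC (log2FC -0.25, interval -0.43 to -0.078). CDA, which inactivates it, had 94 and 59 (log2FC 0.66, interval 0.18 to 1.16), and RRM2 had the most counts of the list, 3656 and 3477. Of 7 copper and platinum carriers 6 had at least 10 counts, between -0.49 for ATP7A and 0.37 for LRRC8A. SLC31A1 (CTR1), a copper importer that also admits cisplatin, had 942 and 839 counts (log2FC 0.16), and LRRC8D, with the most counts, 876 and 1126.

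The 6 genes of the carnitine shuttle around SLC22A5 ranged from -0.27 to 0.33, with CPT1A, the most abundant, at 1382 and 1347 counts. Of 8 listed genes for innate sensing linked to SLC15A carriers, 3 had at least 10 counts. RIPK2 was the most abundant with 1156 and 788 (log2FC 0.54, interval 0.41 to 0.68). IRF5 had 115 and 174 (log2FC -0.60, interval -0.96 to -0.26), and NOD1, with 112 and 127, had an interval that held 0. Of 10 other drug carriers of the SLC group 9 had at least 10 counts, and SLC7A5 had the most, 11883 and 12339. The methotrexate carrier SLC19A1 was the highest of these in log2FC, at 0.62 (456 and 295 counts).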

How the data were processed

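Total RNA of 2 TFK1 libraries, shMBD2 and shNC, was sequenced after preparation with a VAHTS kit. The authors deposited whole-number read counts and TPM, each in 1 table. The submitters' processing notes name fastp, HISAT2 2.1.0, featureCounts, DESeq 1.18.1 and GRCh38.p13. The annotation and strand setting are not given in the sources used here. Gene positions in the tables differ from GENCODE 29 for the same identifiers, so only GENCODE positions are printed. Of 63723 rows, 63677 had an Ensembl identifier, and dropping repeats of a symbol with equal counts left 56638 genes. TPM equal counts divided by a fixed length per gene: the counts per TPM in shMBD2 over shNC were 1.03 in every gene with at least 100 counts.

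Counts were scaled with the TMM factors of edgeR 4.0.16 (R 4.3.3). Log2FC used a prior of 0.5 counts for genes with at least 10 summed counts, and 95% Clopper-Pearson intervals came from scipy 1.17.1. With 1 library per group, counts past a log2FC of 1 or -1 replace a test. The calculation was run on simulated counts that held counting error only, so this check does not cover the spread between cultures. A count of 0 was read as allowing up to 3 counts. Alternatives were DESeq2 1.42.0 size factors, total counts, upper-quartile factors, TPM plus 0.1 or 1, priors of 2 and 0.1, other filters and all rows. Named genes were carriers past 1 or -1, with at least 1000 counts in a library or on a fixed list of drug carriers, and list members past 1 or -1 or with the most counts. The choice of any other gene followed a look at its values. The carriers and lists were chosen with earlier results of these data known. Values of some items are counted in the totals but not reported here by name.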

Additional observations from a re-analysis of the deposited data

How the results depend on the processing

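MBD2 stayed between -1.50 and -1.45. The median log2FC of the 33 carriers (0.015) was at most 0.032, and fell below 0 with total counts, TPM plus 0.1 (-0.013) and TPM plus 1 (-0.012). The median over all genes was lower still in those settings, at -0.024, -0.033 and -0.025. The SLCO median stayed above 0, from 0.19 with TPM plus 1 to 0.75 with at least 100 counts, and those of SLC10A, SLC22A and SLC47A below 0, while that of SLC15A took both signs. The number of carriers above 1, 5 by the counts with at least 10 reads, was 1 with TPM plus 1, 1 with at least 100 counts and 8 with at least 1 count, and the number below -1 was 0, or 2 with at least 1 count. The filters change which carriers are counted, and a pseudocount of 1 TPM draws low genes towards 0. Of 264 values of single carriers under 8 scalings or priors, 261 stayed inside their counting interval. The other 3 were found with TPM plus 1: SLCO2B1 at 1.27, SLC22A11 at 0.96 and SLCO5A1 at 0.34, so SLCO2B1 alone was above 1 there. SLC22A5 and SLCO1A2, both near 0, changed sign or reached 0 under some scalings. No paired analysis was possible because there is only 1 shMBD2 and 1 shNC library. Depth limits the carriers below 100 counts, and no library repeats a culture.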
